A study of Bos taurus with 12 samples.

Results

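The BCL2 family sets how readily a cell enters mitochondrial apoptosis, and 9 of its genes were examined in the mammary gland of lactating Holstein cows: BCL2, BCL2L1, MCL1, BAX, BAK1, BAD, BID, BNIP3 and BNIP3L. They were chosen by name, with earlier results of these data known. Their probes were those whose RefSeq transcript identifier maps to one of these symbols, which gave 18 of the 43653 non-control probes and 9 of the 12787 genes with a symbol. The 12 samples were udder biopsies of 6 cows, each sampled at CONT (day 0, lactation diet offered without limit) and at REST (day 6 of feed restriction, with the allowance cut to cover 50% of the net energy for lactation requirement). Each RNA was hybridized alone, labelled with Cy3, to a bovine oligonucleotide array. Period and day are the same thing in this design, because no cow was kept on the full diet until day 6. The labels name 6 cows, whereas the series design text counts 1 cow fewer and the study's methods mention 1 Holstein cow left out for mastitis. As no label says which cow that was, each cow was also omitted in turn.

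Proteins of this family meet at the outer mitochondrial membrane. BCL2, BCL2L1 (BCL-XL) and MCL1 protect the membrane, BAX and BAK1 form the pores that release cytochrome c, and proteins that carry only the BH3 segment, such as BAD and BID, turn stress or death receptor signals into pore formation by freeing or activating BAX and BAK1. BNIP3 and BNIP3L (NIX) are BH3-like proteins best known as receptors that mark mitochondria for removal by autophagy, and their transcription is typically raised by hypoxia. In the mammary gland the balance of these proteins is known mainly from involution after milking stops, when the secretory epithelium is lost by cell death.

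A value below is a normalized signal, in log2 units relative to the 75th percentile of its own array, and a change is REST minus CONT of the same cow in the same units. A signal depends on the probe as well as on the transcript, so that levels of different probes are not compared. Probes were tested with limma with the cow as a block when they were well above background on every array of at least 1 group, and passed at a Benjamini-Hochberg adjusted p under 0.1 over all 19405 tested probes. Both samples of a cow lay on 1 slide. Slide 1 held cows 1 and 2, slide 2 held cows 3 and 4, and slide 3 held cows 5 and 6. Between 61.8% and 67.9% of spots were well above background on the arrays of slides 1 and 2, against 41.9% to 48.0% on slide 3. The 75th percentile itself (log2) was 8.16, 8.25, 8.22, 7.98, 6.42 and 6.19 at CONT in cows 1 to 6. At REST it was higher in each cow, at 8.44, 8.61, 8.39, 8.26, 6.87 and 6.44. A negative change is thus a fall relative to this percentile and need not be a fall of the unscaled intensity. The tissue label was checked with luminal epithelial markers, of which LALBA (the milk protein α-lactalbumin) had a signal of 9.69 to 10.4 at CONT and of 9.53 to 10.1 at REST.

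Of the 9 genes, BID passed the test, with a lower signal at REST, and the other 7 tested genes did not. Of their 18 probes, 14 were tested and 1 passed, beside 16.0% of all tested probes, and 8.78% of all tested probes passed with a lower signal. Counted by genes with any passing probe, this was 1 of 8 beside 20.5%, and by the probe of highest mean signal it was 1 of 8 beside 16.2%. At an unadjusted p under 0.05 there were 4 of 14 probes (BCL2, the brightest probe of BNIP3 and a pair of BID probes), beside 27.6% of all tested probes. Each of these shares lies near or below its background. In the fit without the cow block 0 of 14 probes passed, beside 4.31% of all tested probes, and 3 of 14 had an unadjusted p under 0.05, beside 16.9%. The unmoderated, unpaired version of the test passed 0 as well, beside 3.73% of all tested probes, with 2 of 14 probes at an unadjusted p under 0.05, beside 16.5%. CONT and REST signals overlapped for each of the 18 probes, and no share over all probes is set beside this. The median change of the 8 tested genes was -0.10, with 5 of 8 lower at REST (62.5%), against a median of -0.01 and 51.6% lower for all 7932 tested genes.

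**Figure D1:**
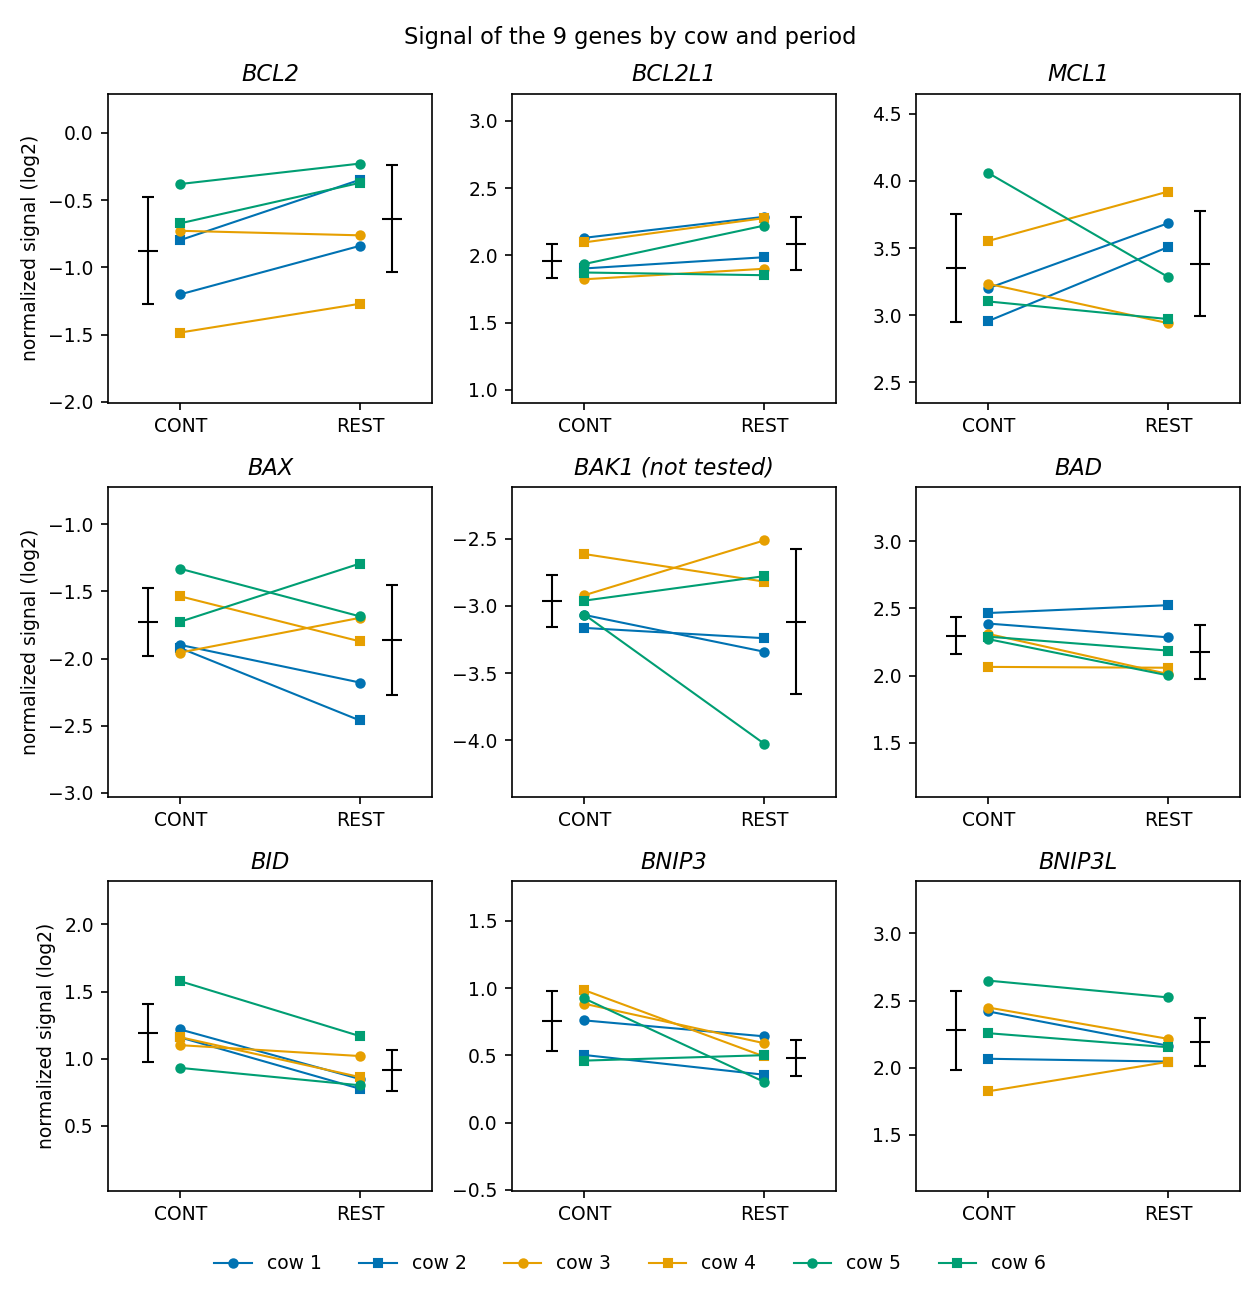
Normalized signal (log2 relative to the 75th percentile of the array) of the probe of highest mean signal of each of the 9 genes at CONT and REST, with 1 line per cow, 1 colour per slide, and black bars giving mean ± SD (n = 6). The BID lines all descend, those of BCL2 ascend in 5 of 6 cows and those of BNIP3 descend in 5 of 6 cows; BAK1 was not tested because its probe was well above background on only 4 of 6 arrays of each group.

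BID and BAD are the BH3-only genes of the set. BID couples death receptors to mitochondria, since its protein is cut by caspase 8 and then activates BAX and BAK1. On the BID probe of highest signal (transcript NM_001075446), CONT signals were 1.22, 1.16, 1.10, 1.16, 0.93 and 1.58 in cows 1 to 6. The REST signals of the same cows were 0.85, 0.78, 1.02, 0.86, 0.80 and 1.17. All 6 cows were lower at REST, although the group ranges overlapped. CONT of cows 2 to 5 lay below REST of cow 6, and CONT of cow 5 also lay below REST of cow 3. The mean went from 1.19 ± 0.21 (SD, n = 6) to 0.91 ± 0.15, a change of -0.28 (SE 0.0807, 95% interval -0.46 to -0.09, limma adjusted p = 0.0688), so that the signal fell by 17.5%. In a whole-tissue biopsy, fewer cells that carry a transcript and less of it per cell cannot be told apart.

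On the brightest BID probe the decrease was present on each slide, with mean changes of -0.38, -0.19 and -0.27 on slides 1 to 3. The call depended on pairing, on the processing and on single cows. The adjusted p was 0.242 without the cow block, 0.178 with the slide as the block and 0.187 with no filter on dim probes. With the background corrected by normexp the change was -0.17 and the adjusted p 0.158. It was 0.156, 0.182, 0.160 and 0.132 when cow 1, 2, 4 or 6 was omitted, with changes of -0.26, -0.26, -0.27 and -0.25.

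The second BID probe (A_73_P432911) was also lower at REST in 6 of 6 cows, with a change of -0.30 (SE 0.120) and an adjusted p of 0.149. The drop of cow 5 was the widest on it, at -0.93. The third BID probe (A_73_P435086) was lower in 5 of 6 cows, with a change of -0.18 and an adjusted p of 0.384. It went the other way in cow 5 (0.52) and in the mean of slide 3 (0.06). The mean of the 3 probes changed by -0.25 (limma adjusted p = 0.0658). The 3 genes whose centred signals over the 12 arrays were most like those of BID, out of 7931 other tested genes, were PGP, SLC4A2 and ARPP19, with Pearson correlations of 0.936, 0.925 and 0.923. These describe 12 arrays that share 6 cows and 3 slides and carry no test.

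BAD is held inactive by phosphorylation in cells that receive growth and survival signals, and otherwise binds BCL2 and BCL-XL. On its brightest probe (NM_001035459) CONT signals ran from 2.06 to 2.47 with a median of 2.30. At REST they ran from 2.001 to 2.52 with a median of 2.12. The groups overlapped along almost their whole range, and the mean change was -0.12 (SE 0.0810, 95% interval -0.30 to 0.06, limma adjusted p = 0.367), and -0.03 with normexp. The other BAD probes changed by -0.10 (adjusted p = 0.457) and 0.01 (adjusted p = 0.930).

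**Figure D2:**
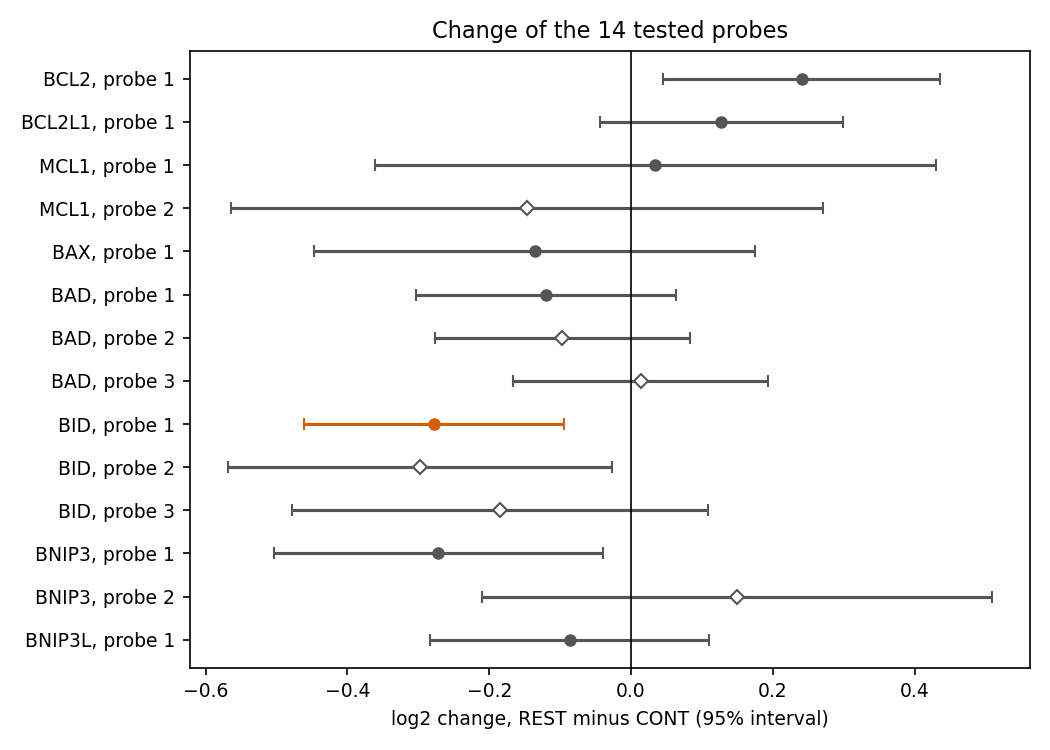
Mean change (REST minus CONT, log2) of the 14 tested probes with its 95% interval from limma, where filled circles mark the brightest probe of a gene, open diamonds its other probes, and orange the probe that passed. The intervals of 1 BCL2 probe, 2 BID probes and 1 BNIP3 probe lie wholly on one side of 0, and 1 of these, the brightest BID probe, passed after adjustment.

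Among the genes whose proteins protect the mitochondrial membrane, BCL2 had the widest change on a tested probe. On its single probe (NM_001166486) CONT signals were -1.20, -0.80, -0.73, -1.48, -0.38 and -0.67 in cows 1 to 6, and REST signals were -0.84, -0.35, -0.76, -1.27, -0.23 and -0.37. The signal was higher at REST in 5 of 6 cows, and cows differed from each other by far more than the periods did. The mean change was 0.24 (SE 0.0862, 95% interval 0.05 to 0.44), with an adjusted p of 0.115 in limma, on the other side of the threshold from BID. Without cow 3, the only cow with a lower signal at REST (-0.03), the change was 0.30 and the adjusted p 0.0964. BCL2 is abundant in resting lymphocytes, and the T and NK cell markers CD8A (0.45) and CD3E (0.35) rose. They were 2 of the 7 tested markers of that list (28.6%, beside 16.2% of all tested genes). Of the 7, 3 were lower at REST without passing (down to -0.22). CD8A changed by 0.23 with normexp and did not pass there, and CD3E did not pass when any cow but cow 5 was omitted. The mean signal of the list ranged from 0.60 to 0.92 at CONT and from 0.65 to 1.28 at REST and was higher in 4 of 6 cows. Of the B and plasma cell markers 0 of 4 passed, with 0 at an unadjusted p under 0.05, and MS4A1, which defines B cells, was not well above background on any array. The part of these cells in the BCL2 signal was not tested.

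BCL2L1, whose long form BCL-XL guards differentiated epithelial cells, was measured on its brightest probe (NM_001077486) at 1.82 to 2.13 at CONT, with a median of 1.92. At REST it lay between 1.85 and 2.29, with a median of 2.10. It was higher at REST in 5 of 6 cows, with a mean change of 0.13 (SE 0.0756, 95% interval -0.04 to 0.30, limma adjusted p = 0.309), so a rise of more than 0.30 lies outside the interval. The other BCL2L1 probes were well above background on at most 4 of 6 arrays of a group and were not tested. Their mean within-cow changes were 0.39 ± 0.46 and 0.16 ± 0.65 (SD, n = 6). The array does not separate the long and short splice forms here, as all 3 probes carry 1 transcript identifier.

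MCL1 encodes a short-lived protector whose transcript turns over fast, and its change differed more between cows than that of any other member on the brightest probes (SD 0.52, n = 6). On its brightest probe (NM_001099206) the cows changed by 0.48, 0.55, -0.29, 0.37, -0.77 and -0.13. Hence 3 cows were higher and 3 lower at REST, with slide means of 0.52, 0.04 and -0.45. The mean change was 0.03 (SE 0.174, 95% interval -0.36 to 0.43, limma adjusted p = 0.920), an interval wide enough to hold changes as large as that of BID in both directions. The second tested MCL1 probe changed by -0.15 (SE 0.184, adjusted p = 0.638), and the mean of both tested probes by -0.06. That second probe was well above background on 6 CONT arrays but only 5 REST arrays. It entered the test through CONT alone, where its mean was higher, so nothing is read from its direction. The third MCL1 probe, which was not tested, was well above background on 5 arrays of each group and changed by -0.29 ± 0.47 (SD, n = 6).

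**Figure D3:**
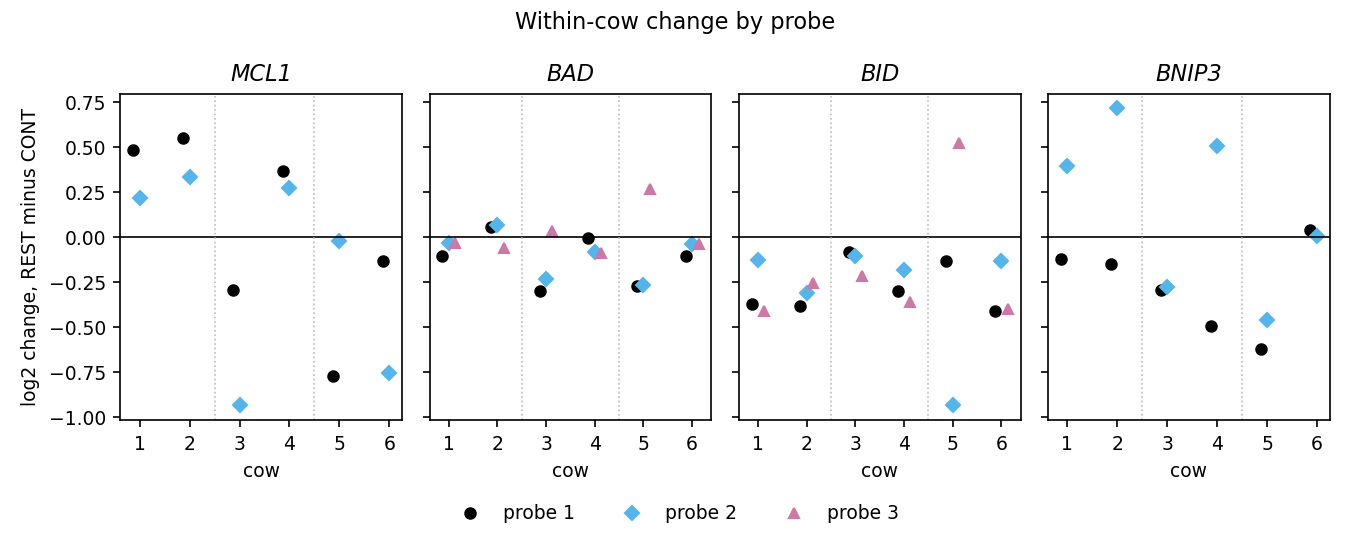
Change (REST minus CONT, log2) by cow on each tested probe of MCL1, BAD, BID and BNIP3, the genes with more than 1 tested probe, where colour and shape give the probe (probe 1 the brightest) and dotted lines separate the slides. The BID probes sit below 0 in all cows but for the third probe in cow 5, while the MCL1 probes and the second BNIP3 probe spread to both sides of it.

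BAX and BAK1 encode the pore formers. On the BAX probe (NM_173894) CONT signals lay between -1.96 and -1.33 with a median of -1.81. REST signals lay between -2.46 and -1.29 with a median of -1.79, so that the REST range enclosed that of CONT. The cows changed by -0.28, -0.54, 0.26, -0.34, -0.35 and 0.43, a mean of -0.14 (SE 0.137, 95% interval -0.45 to 0.17, limma adjusted p = 0.553). Without cow 2 the mean change was -0.06, and without cow 6 it was -0.25. BAK1 (NM_001077918) was close to the detection limit. Its signals ran from -3.16 to -2.61 at CONT and from -4.02 to -2.51 at REST, and the within-cow change was -0.15 ± 0.47 (SD, n = 6), lower in 4 of 6 cows.

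BNIP3 and BNIP3L are the mitophagy receptors of the set. On the brightest BNIP3 probe (NM_001076366) CONT signals were 0.76, 0.50, 0.88, 0.99, 0.92 and 0.46 in cows 1 to 6. REST signals were 0.64, 0.36, 0.59, 0.49, 0.30 and 0.50. The signal was lower at REST in 5 of 6 cows and nearly level in cow 6 (0.04), and the SD between cows was 0.22 at CONT and 0.13 at REST. The mean change was -0.27 (SE 0.102, 95% interval -0.50 to -0.04), almost the size of the BID change, but with an adjusted p of 0.129 in limma. With the cow as a random block the adjusted p was 0.0745, and without cow 6 the change was -0.33 with an adjusted p of 0.0962. The second BNIP3 probe went the other way, with cow changes of 0.40, 0.72, -0.27, 0.51, -0.46 and 0.01, a mean of 0.15 (SE 0.158) and an adjusted p of 0.574. The mean of both probes changed by -0.06, so the direction for BNIP3 rests on the choice of probe.

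BNIP3L (NM_001034614) had CONT signals of 1.82 to 2.65 with a median of 2.34. REST signals were 2.04 to 2.52 with a median of 2.16. It was lower in 5 of 6 cows by 0.02 to 0.25 and higher in cow 4 by 0.22. The mean change was -0.09 (SE 0.0866, 95% interval -0.28 to 0.11, limma adjusted p = 0.550). It was -0.15 without cow 4, -0.05 without cow 1, -0.06 without cow 3 and -0.03 with normexp.

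Differences in change between members were compared for 4 pairs, with exact two-sided sign-flip permutation tests over the 6 cows, which cannot give a p below 0.0312. The change of BCL2 exceeded that of BAX, the ratio often used to describe survival against death, by 0.38 ± 0.49 (SD, n = 6, exact permutation p = 0.125, adjusted over 4 pairs 0.458), and it did so in 4 of 6 cows. The change of BCL2L1 exceeded that of BAX by 0.26 ± 0.46 (n = 6, exact permutation p = 0.250, adjusted 0.458), in 4 of 6 cows, and by 0.41 without cow 6. For MCL1 and BAK1 the difference was 0.19 ± 0.58 (n = 6, exact permutation p = 0.469, adjusted 0.469) and ranged from 0.074 to 0.37 with 1 cow omitted (lowest without cow 1, highest without cow 3). As the BAK1 probe was well above background on only 4 of 6 arrays of each group, nothing is read from that pair. BNIP3 and BNIP3L differed by -0.19 ± 0.35 (n = 6, exact permutation p = 0.344, adjusted 0.458). That difference was -0.080 without cow 4, -0.12 without cow 5 and 0.025 with the mean of all tested probes, so its direction was not settled. No pair passed. The 95% interval of the difference ran from -0.55 to 0.18 for BNIP3 minus BNIP3L, and equal change was not shown for any pair.

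Genes around the family were read from 9 lists, which were chosen with earlier results of these data known. They held 123 genes, of which 90 were tested by their brightest probe. The test was passed by 16 (17.8%), 7 of them higher and 9 lower, beside the 16.2% of all tested genes, and their median change was 0.03. Among the other BCL2 family genes 1 of 5 passed. BCL2L15, a little studied pro-apoptotic relative, fell by 0.76 (SE 0.163, limma adjusted p = 0.0316) and was lower in 6 of 6 cows, while the remaining 4 lay between -0.04 and 0.23. BCL2L11 (BIM), BMF and BCL2L14 were on the array but not tested. Among genes of BCL2-binding partners 1 of 12 passed, as BAG3, a co-chaperone that feeds damaged proteins to autophagy, changed by -0.29 (adjusted p = 0.0452), although its other tested probe changed by 0.03 (adjusted p = 0.924).

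Of 12 tested genes of the apoptosome and the caspases 0 passed, nor did any without the cow block or without moderation, and 3 had an unadjusted p under 0.05 in limma. Among these were the caspase gene CASP6 (-0.24, adjusted p = 0.165) and the mitochondrial nuclease ENDOG (-0.29, adjusted p = 0.113), named after their values were seen. CASP8, the caspase that cleaves BID, was also singled out afterwards, because its probes disagreed. Its brightest probe changed by 0.03 (adjusted p = 0.852), and the other probes by -0.27 (adjusted p = 0.0779) and -0.36 (adjusted p = 0.0417). Among the inhibitors of apoptosis 0 of 3 passed in these fits, with 0 at an unadjusted p under 0.05. In the death receptor pathway 6 of 8 were higher at REST and 2 passed (25%), beside 16.2% of all tested genes. TNFSF10, the death ligand TRAIL, rose by 0.52 (adjusted p = 0.0292) in 6 of 6 cows, and the death receptor gene TNFRSF21 by 0.44 (adjusted p = 0.0414) in 5 of 6.

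Of the 12 tested genes for p53 and cell stress inputs, 10 had a higher signal at REST and 2 a lower one, where 51.6% of all tested genes were lower. Their median change was 0.46, against -0.01 for all tested genes, and 3 passed (25%), beside 16.2% of all tested genes. DDIT3 (CHOP), a transcription factor of the unfolded protein and amino acid responses, rose by 0.95 (SE 0.226, limma adjusted p = 0.0408) in 5 of 6 cows. The AP-1 subunit JUN rose by 0.81 (adjusted p = 0.0587) and TP53INP1, a p53 target, by 0.65 (adjusted p = 0.0434), both in 6 of 6 cows. Each of these 3 calls was lost when cow 1, 2 or 4 was omitted, and the list median was then 0.28, 0.27 and 0.27. Within single cows the list median was 0.94, 1.32, 0.20, 0.68, 0.11 and -0.14 in cows 1 to 6, so the shift lay mainly in cows 1, 2 and 4, and in cow 6 only 4 of the 12 genes were higher at REST.

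In the mitophagy and autophagosome list, to which BNIP3 and BNIP3L relate by function, 4 of 16 passed (25%), beside 16.2% of all tested genes. The median change was -0.00. OPTN, an adaptor for ubiquitin-marked mitochondria, fell by 0.46 (adjusted p = 0.0224) and MAP1LC3A, an autophagosome membrane protein, by 0.29 (adjusted p = 0.0836). SQSTM1 (p62), an adaptor of selective autophagy, rose by 0.37 (adjusted p = 0.0834) in 6 of 6 cows. In the hypoxia and HIF1 target list, 4 of 11 passed (36.4%, beside the same 16.2%), all lower in 6 of 6 cows, and the median was -0.04. ADM, the vasodilator adrenomedullin, fell by 1.15 (SE 0.136, limma adjusted p = 0.00644), the widest change in the 9 lists. HIF1A, the oxygen-regulated transcription factor, fell by 0.54 (adjusted p = 0.0294), the collagen hydroxylase P4HA1 by 0.32 (adjusted p = 0.0903) and the oxygen sensor EGLN1 by 0.27 (adjusted p = 0.0834). Of 11 tested genes linked to mammary involution 1 passed, the lysosomal protease CTSD, which rose by 0.27 (adjusted p = 0.0770) in 6 of 6 cows.

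**Figure D4:**
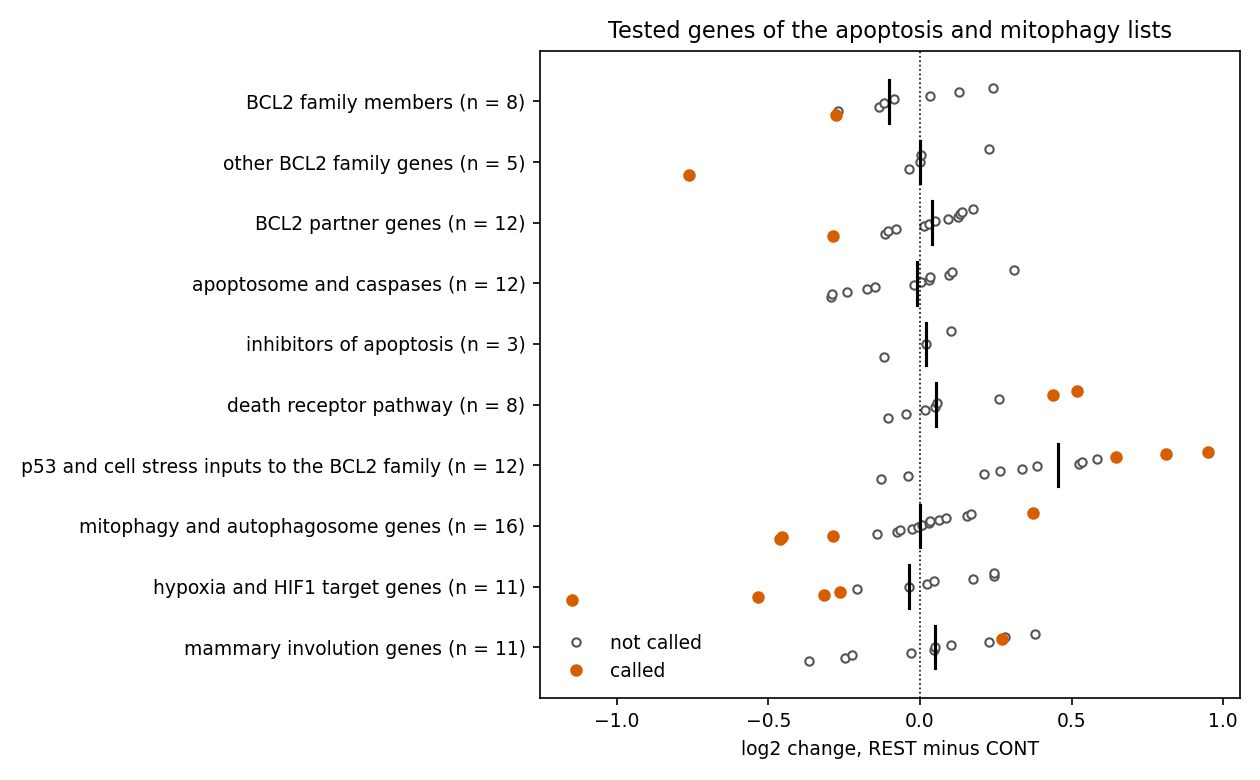
Change (REST minus CONT, log2) of every tested gene of the 9 lists around the BCL2 family, below the 8 tested members in the top row, by the brightest probe, with filled orange points for genes that passed at an adjusted p under 0.1 and a black bar at each median. The list of p53 and cell stress inputs has its median at 0.46, the members have theirs at -0.10, and the other 8 lists have medians between -0.04 and 0.05.

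Of these 16 genes, 5 (BCL2L15, TNFSF10, OPTN, ADM and HIF1A) passed whichever cow was omitted, and 3 (TP53INP1, OPTN and ADM) passed without the cow block. With another scaling or background correction 3 calls were lost, those of EGLN1 (quantile, median and normexp), MAP1LC3A (quantile and normexp) and P4HA1 (normexp). Omitting cow 2 removed 11 of the calls and cow 4 removed 10, against 8 for cow 1 and 4 for each of cows 3, 5 and 6.

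Markers of the cells in a biopsy moved beside these results. Their counts stand beside the 16.2% of all tested genes that passed. Among luminal epithelial markers the keratins KRT8 (0.72) and KRT18 (0.52) rose, 2 of 6 tested, while 2 of the 6 were lower at REST without passing (down to -0.20). The mean signal of that list ranged from 4.86 to 5.53 at CONT and from 5.16 to 5.68 at REST and was higher in 6 of 6 cows. The KRT18 call was lost when any cow but cow 6 was omitted, and neither keratin passed without the cow block. The myoepithelial genes CNN1 (-0.53) and ACTA2 (-0.38) fell, 2 of 6, while 3 of the 6 were higher at REST without passing (up to 0.25), the list median was -0.07, and the ACTA2 call was lost with quantile scaling and when any cow but cow 4 was omitted. TP63 was not well above background on any array. The endothelial genes CLDN5 (0.74) and VWF (0.54) passed with a higher signal, 2 of 6. In that list 5 of 6 genes were higher at REST and 1 was lower without passing (-0.15). FABP4 (-0.35) fell as the single tested gene of the adipocyte list. The defining marker of that list, PLIN1, was not well above background on any array, and its LEP, CIDEC and LIPE were not tested. Of 6 fibroblast markers and 4 macrophage and neutrophil markers 0 passed in limma, with 2 and 1 at an unadjusted p under 0.05 and 0 without moderation. The fibroblast markers had a median change of -0.36, with 4 of 6 lower at REST and values down to -0.54. The part of these cells in the changes of BID, BNIP3 and BCL2 was not tested.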

How the data were processed

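Mammary RNA of 12 biopsies (6 CONT and 6 REST) was hybridized to 12 one-colour arrays, and per the file headers the authors extracted spot intensities with Agilent Feature Extraction 11.0.1.1. The deposited intensity is the processed signal, which is background-subtracted and not scaled between arrays. The deposited value table held the same intensity in all 45220 cells of each array. Among 43803 non-control spots per array, 0 were saturated and 1 to 13 were dropped because the scanner had marked them as outliers.

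Intensities were taken to log2, averaged over repeat spots of a probe and expressed relative to the 75th percentile of non-control spots on that array. Symbols came from RefSeq identifiers (27131 of 43653 probes). The grid annotation refers to another bovine assembly than the reference table, so positions and sequences are not given. The change from CONT to REST was fitted in R 4.3.3 with limma 3.58.1 (lmFit and eBayes), cow as a fixed block, with Benjamini-Hochberg adjustment over 19405 probes and a threshold of 0.1. The methods of the study name t-tests at this threshold and use the word moderated for their Benjamini-Hochberg correction. Whether variances were moderated is not clear from them, and they do not state pairing. Each cow gave both samples, by the animal names in the labels, and deviations from the group means correlated at 0.355 to 0.574 within cows and at -0.326 to 0.135 between cows. A gene was represented by its tested probe of highest mean signal. Intervals are 95%. Alternatives changed the scaling, background (normexp with offset 50 on the median signals, as no mean signal was in the columns used), filter, block, slide, moderation and cows. The fit was tested on simulated data. Named were all members, at most 4 passing genes per list by absolute change, and the 3 genes most like a passing member. The members and lists were chosen with earlier results of these data known. With 6 cows per group the number of arrays limits the precision. Python 3.11.15 and matplotlib 3.10.9 were used for reading and plotting. Some genes of the lists are counted but not reported by name here.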

Additional observations from a re-analysis of the deposited data

Results flagged for a closer look

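In 5 of 36 groups of 6 signals (18 probes, each at CONT and at REST), 1 cow stood apart from the others, where chance gives about 1 in 20, or 1.8 groups. On the BCL2L1 probe A_73_P330086, which was not tested, cow 2 at CONT had a signal of -5.25 with the others between -4.06 and -3.68, and cow 5 at REST had -2.95 with the others between -4.38 and -3.95. On the dimmest BAD probe, cow 5 at CONT had -2.39 with the others between -1.86 and -1.71. On the second BID probe, cow 5 at REST had -1.40 with the others between -0.82 and -0.56. On the BNIP3L probe, cow 5 at REST had 2.52 with the others between 2.04 and 2.22. Cow 5 accounts for 4 of these 5 values, and its arrays lie on slide 3, where fewer spots were well above background. Without cow 5, BID still passed.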

How the results depend on the processing

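Quantile or median scaling, the deposited value table, the stricter filter, keeping marked spots, and eBayes with trend and robust settings kept 1 member passing, namely BID. The number of probes passing, 3105 with the cow block, was 388 with no filter on dim probes, 837 without the block, 1899 with slide as the block, 723 with the test without moderation and pairing, and 1044 to 3292 with 1 cow left out. The number of members passing was 2 with normexp (BCL2, 0.19, adjusted p = 0.0943, and BID by another of its probes), 2 with a random block, 0 with no filter, 0 without the replicate block, 0 with the slide block, 0 with the unmoderated, unpaired test, and 0 to 2 with 1 cow left out. The number of pathway genes passing, 16, was 1 with no filter, 3 without the block, 8 with the slide block, 2 with the unmoderated, unpaired test, and 6 to 16 with 1 cow left out. The probe of highest signal of BID kept a change between -0.32 and -0.17 under its 19 alternatives, with adjusted p from 0.0503 to 0.242. It missed the threshold under 9 of them. BCL2 stayed between 0.19 and 0.30. MCL1 turned from 0.034 to -0.057 as the mean of its tested probes, of which the dimmer was tested through CONT alone. The MCL1 probe of highest signal ranged from -0.069 to 0.20 with 1 cow left out. The difference of BNIP3 and BNIP3L turned to 0.025 with the mean of all tested probes. The causes were not tested.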
